A study of Mus musculus with 2 samples.

Results

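Constitutive proteasome subunit genes were taken as all gene symbols that start with Psma, Psmb, Psmc, Psmd or Psme followed by a digit, without the immunoproteasome genes Psmb8, Psmb9 and Psmb10 and without pseudogenes, and with at least 20 UMIs (unique molecular identifiers, each marking 1 captured transcript) over both libraries. This gave 41 members of 28625 gene symbols. The name rule matched 42 symbols. Psmb11, the thymus form of a catalytic subunit, had 2 UMIs and was left out, and Psma8, the testis form of an alpha subunit, was the member nearest the limit with 53. By role, 7 members form the alpha rings and 7 the beta rings of the 20S core particle, 6 are ATPases and 11 are other subunits of the 19S regulatory particle, and these 31 somatic subunits are called the 26S subunits here. A further 3 (Psmd5, Psmd9 and Psmd10) are chaperones of 19S assembly, 3 (Psme1, Psme2 and the near-identical copy Psme2b) belong to the PA28αβ activator, and 2 (Psme3 and Psme4) are other activators. Psmc3ip matched by name only, since it encodes a meiotic recombination factor, so 40 members are subunits, chaperones or activators. Because the copies are near-identical, reads of Psme2 and Psme2b could be lost or credited to the wrong copy. This makes their separate values, and to a degree the PA28αβ sum, uncertain.

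The study compared C57B/6 mice aged 12 weeks, with tibialis anterior (shin) muscle digested with protease and cells captured for droplet-based 3′ RNA sequencing. There was 1 library of uninjured muscle and 1 library taken 24 hours after 1.2% barium chloride (BaCl in the labels), which destroys muscle fibres, was injected into the muscle. Because the injection stands in the treatment text of the control sample too, a sham or other injection of the uninjured muscle cannot be read from the labels. The labels do not say how many animals each library holds. The cells kept from the uninjured library had 16538 UMIs of Xist and 0 of 4 Y-linked genes, summed, and those of the injured library had 0 and 4445, so sex and condition cannot be told apart. The libraries held 22994502 UMIs in 5581 barcodes and 39014762 UMIs in 4489 barcodes, with medians of 3237 and 7282 UMIs, and shared 33 barcode sequences.

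With 1 library per condition no test of the condition is possible. Levels are CPM, the UMIs of a gene per 1000000 UMIs of a cell class in a library, with an exact 95% Poisson interval in brackets. A ratio is injured over uninjured CPM with its exact conditional binomial interval. Both intervals cover counting error only and not variation between animals. In 3′ libraries a transcript gives UMIs whatever its length, so levels need no length correction. Genes can still differ in how well their transcripts are counted, so comparisons between genes are of UMI levels only. For Psma2, Psmd1 and Psme2b another counted gene overlaps on the same strand.

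The 26S proteasome degrades proteins tagged with ubiquitin chains. The alpha rings of the 20S core gate access to the beta rings, where Psmb5, Psmb6 and Psmb7 carry the chymotrypsin-like, caspase-like and trypsin-like activities, and the 19S particle binds, unfolds and deubiquitinates substrates. Interferon induces Psmb8, Psmb9 and Psmb10, which replace these catalytic subunits in the immunoproteasome, and also PA28αβ, which opens the core without ubiquitin. In skeletal muscle the ubiquitin-proteasome pathway is known for breaking down fibre proteins during atrophy.

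Promoter sequences are shown because summed 26S transcripts were higher in the injured library in every class compared. Summed PA28αβ transcripts were higher in some classes and lower in others. RefSeq promoters (build GRCm38.p6, 250 bases before to 50 after the start site) were matched for 33 of the 40 genes and not for Psma8, Psmb1, Psmb2, Psmb7, Psmc3, Psmd3 and Psmd7. Psmb5, Psmb6 and Psme1 are printed below from 250 bases before to 30 after the start, 280 bases each, on the gene's strand. Capitals mark an antioxidant response motif (TGANNNNGC, the kind bound by Nfe2l1 and Nfe2l2) in Psmb5 and Psmb6 and an interferon-stimulated response element (here on the other strand) in Psme1.
Psmb5 (chr14:54617966-54618245, minus strand): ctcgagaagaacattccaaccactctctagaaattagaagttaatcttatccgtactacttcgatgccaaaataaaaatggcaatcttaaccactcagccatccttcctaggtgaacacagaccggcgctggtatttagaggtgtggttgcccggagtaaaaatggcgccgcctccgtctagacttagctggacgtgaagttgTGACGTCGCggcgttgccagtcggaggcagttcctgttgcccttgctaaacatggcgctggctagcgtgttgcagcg
Psmb6 (chr11:70525107-70525386, plus strand): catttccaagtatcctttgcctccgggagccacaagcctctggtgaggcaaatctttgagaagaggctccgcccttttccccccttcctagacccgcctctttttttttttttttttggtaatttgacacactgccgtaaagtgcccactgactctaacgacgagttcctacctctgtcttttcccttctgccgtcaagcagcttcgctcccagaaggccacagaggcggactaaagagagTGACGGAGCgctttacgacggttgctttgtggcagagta
Psme1 (chr14:55578244-55578523, plus strand): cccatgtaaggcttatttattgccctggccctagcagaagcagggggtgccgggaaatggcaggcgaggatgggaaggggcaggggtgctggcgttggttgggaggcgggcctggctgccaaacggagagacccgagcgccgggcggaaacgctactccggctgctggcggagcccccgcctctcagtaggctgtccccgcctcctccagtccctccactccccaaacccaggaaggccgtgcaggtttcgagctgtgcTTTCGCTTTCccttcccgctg
Counted with the start site as base 1, the capital stretch begins at -47 in Psmb5, at -9 in Psmb6 and at 10 in Psme1. Searched on both strands, TGANNNNGC was in 15 of 27 promoters of 25 26S genes (55.6%) and in 41.3% of 32851 promoters of the table. Its stricter form TGACNNNGC, which is contained in it, was in 4 of 27 (14.8%) against 12.4%. CCAAT was in 37.0% against 37.4%, an NF-kappaB motif in 29.6% against 20.7%, and the interferon-stimulated response element in 2 of 27 (7.41%) against 3.44%. The antioxidant motif was also found outside the 26S genes, in 2 of 3 promoters of Psmb8, Psmb9 and Psmb10 and in 2 of 4 promoters of PA28αβ genes. The latter are overlapping promoters of Psme2 with the same site, so 1 of the 3 PA28αβ genes had it. The interferon-stimulated element was in 1 of the 4 PA28αβ promoters and in 0 of the 3 immunoproteasome promoters. These shares describe letters in the window and not binding.

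By Leiden clustering and fixed marker lists, 6 classes had at least 50 cells in both libraries. They were endothelial-like (2643 uninjured and 448 injured cells), fibro-adipogenic progenitor-like, a fibroblast type of muscle interstitium (845 and 430), tenocyte-like, or tendon fibroblast-like (394 and 156), pericyte and smooth muscle-like (109 and 129), monocyte and macrophage-like (81 and 2477), and dendritic-like cells (61 and 255). Satellite cell-like (248 cells, the muscle stem cells), glial-like (251) and lymphatic endothelial-like cells (55) reached that number in the uninjured library alone. Different clusters held most cells of a class in each library: clusters 1, 2, 7 and 10 against cluster 12 for endothelial-like, 11 against 21 for tenocyte-like, and 24 against 3, 4, 5 and 6 for monocyte and macrophage-like cells, while dendritic-like cells were all in cluster 13 and pericyte and smooth muscle-like cells all in cluster 17. Cluster 9, which holds 411 of the injured fibro-adipogenic progenitor-like cells, had 1 lymphatic marker (Pdpn) and no own marker among its 10 leading genes. That class is therefore given also by cluster number, as clusters 8, 16 and 20 of the uninjured library against cluster 9. At Leiden resolution 2 the pericyte and smooth muscle-like class had a part led by Kcnj8, Vtn and Higd1b (62 uninjured and 125 injured cells). Its other part, led by Myh11, Pln and Acta2, had 47 uninjured and 5 injured cells. The make-up of this class thus differed between the libraries, and its part in the ratios of the class was not tested.

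In every class compared, summed 26S transcripts were higher in the injured library. In endothelial-like cells the sum was 4831 CPM (4786 to 4877) in the uninjured library and 8688 CPM (8590 to 8786) in the injured library, a ratio of 1.80 (1.77 to 1.82). These are 0.483% and 0.869% of all transcripts counted. In tenocyte-like cells the sum was 3763 and 7021 CPM, a ratio of 1.87 (1.81 to 1.92). For fibro-adipogenic progenitor-like cells it was 3830 and 7081 CPM, a ratio of 1.85 (1.81 to 1.88). By cluster, the uninjured clusters 8, 16 and 20 stood at 3885, 3491 and 4182 CPM and the injured cluster 9 at 7110 CPM (7046 to 7175), so cluster 9 lay above all of them. Monocyte and macrophage-like cells had 3234 and 5931 CPM, a ratio of 1.83 (1.72 to 1.96), with 961 UMIs of these genes in the uninjured cells. Dendritic-like cells had 3824 and 6215 CPM, a ratio of 1.63 (1.53 to 1.73). Pericyte and smooth muscle-like cells had 4921 and 7261 CPM, the lowest ratio of the 6 at 1.48 (1.41 to 1.55). The pooled cells of each library, whose cell types differ in share, had 4240 and 6529 CPM, a ratio of 1.54.

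**Figure D1:**
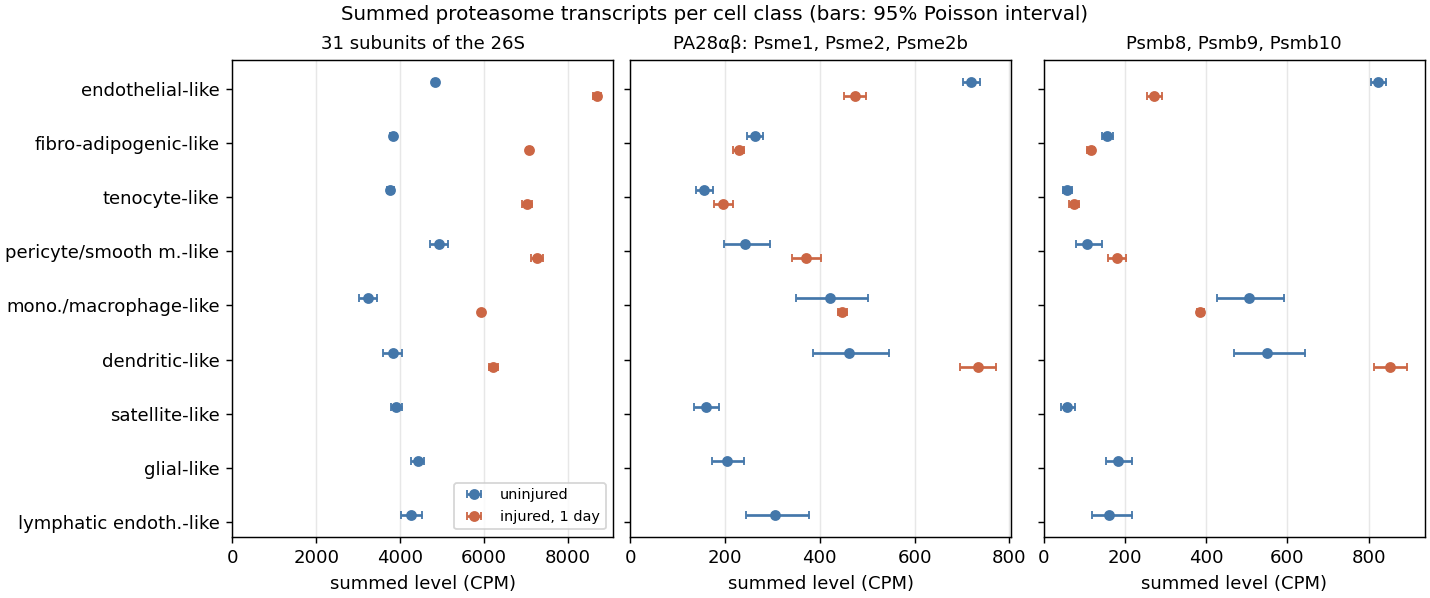
Summed CPM of the 31 26S subunits (left), the PA28αβ genes (middle) and Psmb8, Psmb9 and Psmb10 (right) per cell class, with 1 point per library and bars for the 95% Poisson interval. The 26S points of the injured library lie between 5931 and 8688 CPM and to the right of every uninjured point, while endothelial-like cells have lower PA28αβ and immunoproteasome sums in the injured library.

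The order of the classes differed between the libraries. In uninjured muscle the pericyte and smooth muscle-like sum (4921 CPM, 4713 to 5136) and the endothelial-like sum overlapped at the top. Below them, glial-like (4420), lymphatic endothelial-like (4269), satellite cell-like (3909), fibro-adipogenic progenitor-like (3830), dendritic-like (3824) and tenocyte-like cells (3763 CPM) each had an interval that overlapped with its neighbour in this order. Monocyte and macrophage-like cells were lowest, with an interval (3033 to 3445) below that of tenocyte-like cells (3680 to 3848). In the injured library endothelial-like cells stood alone at the top, pericyte and smooth muscle-like cells overlapped with fibro-adipogenic progenitor-like cells, and monocyte and macrophage-like cells were again lowest.

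Gene by gene, 39 of the 40 genes had at least 20 UMIs in each class, the exception being Psma8. In endothelial-like cells their median log2 ratio was 0.86, against -0.21 over all 11231 genes with that many UMIs. At least 2-fold higher were 10 of 39 (25.6%), against 10.6% of all genes, and 0 were at least 2-fold lower, against 20.4%. The median in fibro-adipogenic progenitor-like cells was 0.91 against -0.29 over all genes, with 14 of 39 at least 2-fold higher (35.9%, against 15% of all genes) and 0 lower (against 28.7%). In tenocyte-like cells the median was 0.92 against -0.21, with 15 higher (38.5%, against 10.4%) and 0 lower (against 21.3%). In monocyte and macrophage-like cells the median was 0.80 against -0.16, with 12 higher (30.8%, against 8.08%) and 0 lower (against 25.9%). In dendritic-like cells the median was 0.68 against 0.04, with 6 higher (15.4%, against 10.3%) and 1 lower (against 11.9%). In pericyte and smooth muscle-like cells the median was 0.62 against 0.14, with 6 higher (15.4%, below the 18.3% of all genes) and 0 lower (against 13%). Counts at 2-fold thus stood above the share of all genes in 5 classes, and 24 to 33 of the 39 genes lay within 2-fold. The counts depend on the scale: relative to the median ratio of all genes, 23 genes were at least 2-fold higher in endothelial-like, 28 in fibro-adipogenic progenitor-like and 28 in tenocyte-like cells, against 14%, 20.6% and 14.4% of all genes on that scale. It raises ratios in these classes because their all-gene median is negative. In dendritic-like and in pericyte and smooth muscle-like cells that median is positive (0.04 and 0.14), so the same scale lowers their ratios.

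**Figure D2:**
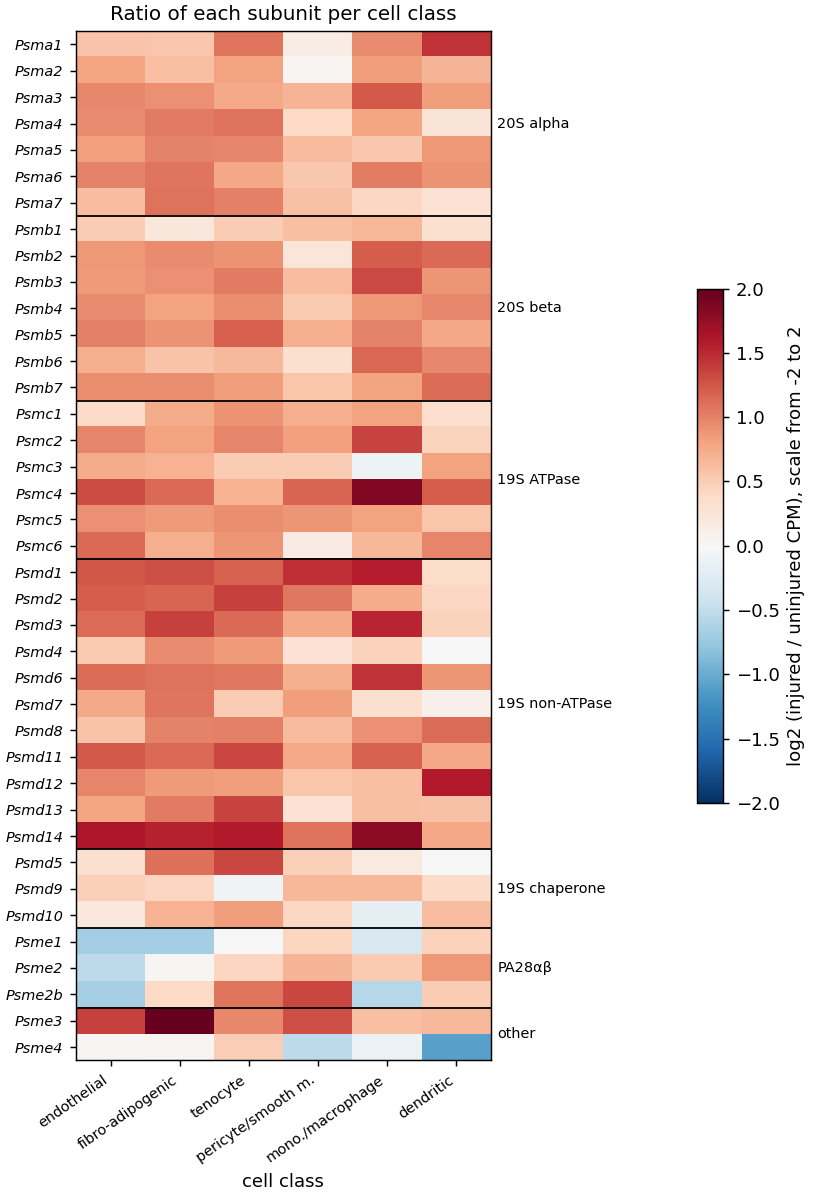
The log2 ratio of injured over uninjured CPM for 39 genes (rows, grouped by role) in 6 cell classes (columns), on a colour scale from -2 to 2. Nearly all rows of the 20S and 19S groups are red in every column, Psmd14 and Psmc4 are among the darkest, and the blue cells lie mainly in the rows of Psme1, Psme2, Psme2b and Psme4.

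Subunits of the same complex did not have equal UMI levels. Psma7, an alpha ring subunit, ranked 1 to 3 among the 31 genes in all 15 class and library profiles, at 249.4 to 688 CPM, and Psmb1, a non-catalytic beta subunit, ranked 1 to 5. Psmd14, the 19S deubiquitinase that removes ubiquitin chains from substrates, ranked 20 to 31, at 30.3 to 141 CPM. Psmc3 was the highest ATPase in every profile, for example at 182 and 306 CPM in endothelial-like cells. The rank order was similar everywhere: Spearman's rho over the 31 genes was 0.794 to 0.975 between the 105 pairs of profiles (median 0.908), as a description, since all profiles share the chemistry and each library's ambient RNA. The distance between the highest and the lowest subunit was smaller in the injured library, 4.595-fold against 9.25-fold in endothelial-like cells and 4.45-fold against 6.91-fold in tenocyte-like cells.

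**Figure D3:**
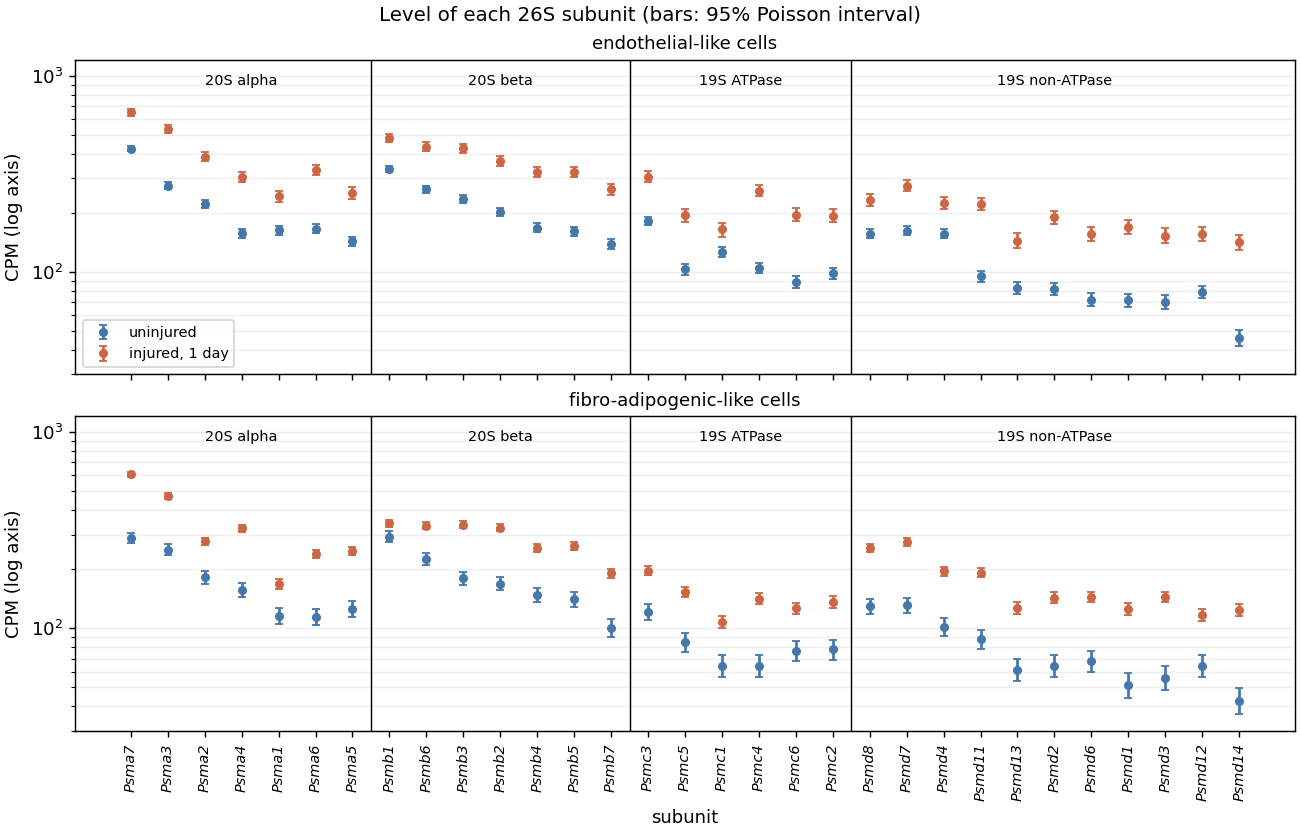
CPM on a log axis of each of the 31 26S subunits in endothelial-like (top) and fibro-adipogenic progenitor-like cells (bottom), 1 point per library with its 95% Poisson interval, ordered within role by the median level over profiles. Injured points lie above uninjured points for every subunit, and the gap is widest at Psmd14.

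Among 20S genes, all 14 had a log2 ratio above 0 in each of the 6 classes. The alpha ring sum was 1552 and 2698 CPM in endothelial-like cells (ratio 1.74, 1.69 to 1.78) and 1232 and 2334 CPM in fibro-adipogenic progenitor-like cells (1.89, 1.83 to 1.96). The beta ring sum was 1503 and 2616 CPM in the former (1.74, 1.69 to 1.79) and 1253 and 2045 CPM in the latter (1.63, 1.58 to 1.69). Psmb5 (chr14:54614119-54618022, build GRCm38) stood at 161 CPM in uninjured and 323 CPM in injured endothelial-like cells, a ratio of 2.01 (1.86 to 2.17). In tenocyte-like cells Psmb5 had 122 and 279 CPM, a ratio of 2.29 (1.97 to 2.67). Psmb6 (chr11:70525367-70527858) had 263 and 434 CPM in endothelial-like cells, a ratio of 1.65 (1.55 to 1.76). Psmb7 (chr2:38588036-38644087) had 139 and 263 CPM there, a ratio of 1.90 (1.74 to 2.07). Over the 6 classes the log2 ratios of these catalytic genes ranged from 0.73 to 1.20 for Psmb5, from 0.32 to 1.15 for Psmb6 and from 0.56 to 1.12 for Psmb7. Psmb1 ranged from 0.23 to 0.67 and never reached 2-fold.

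Within the 19S particle the intervals of the non-ATPase and ATPase ratios were apart in 2 classes. In fibro-adipogenic progenitor-like cells their sum was 857 and 1841 CPM, a ratio of 2.15 (2.07 to 2.23), above the ATPase ratio of 1.76 (1.67 to 1.86) and above both 20S rings. In tenocyte-like cells the ratio was 2.06 (1.95 to 2.18) against 1.72 (1.60 to 1.85) for the ATPases. In endothelial-like cells the 2 ratios were 1.92 (1.86 to 1.98) and 1.87 (1.80 to 1.94), whose intervals overlap, and both lay above the 20S ratio of 1.74 (1.71 to 1.77). In monocyte and macrophage-like cells the 20S ratio was 1.85 (1.72 to 2.004) and the 19S ratio 1.80 (1.60 to 2.01), so no order could be read there.

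Psmd14 (chr2:61711694-61800376) had the largest ratio of any 26S subunit in endothelial-like, fibro-adipogenic progenitor-like and tenocyte-like cells. It stood at 46.0 CPM in uninjured and 141 CPM in injured endothelial-like cells, a ratio of 3.07 (2.69 to 3.51). Fibro-adipogenic progenitor-like cells had 42.7 and 124 CPM (2.90, 2.45 to 3.46). In tenocyte-like cells it had 37.4 and 113 CPM (3.01, 2.32 to 3.95). Monocyte and macrophage-like cells had 30.3 and 105 CPM, on 9 UMIs in the uninjured library (3.47, 1.82 to 7.60). Psmd7, which forms the deubiquitinating pair with Psmd14 in the 19S lid, had 162 and 274 CPM in endothelial-like cells, a ratio of 1.69 (1.56 to 1.84). Psmc4, a 19S ATPase, had 105 and 260 CPM in endothelial-like cells (2.48, 2.26 to 2.72), and it was at least 2-fold higher in 5 of 6 classes, as were Psmd14 and the scaffold subunit Psmd1. At the other end, Psmc3 ranged over the classes from -0.10 to 0.80 and the ubiquitin receptor Psmd4 from -0.01 to 0.94 on the log2 scale, and neither reached 2-fold in any class.

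The chaperones of 19S assembly are not part of the finished particle, and their ratio ranged from 1.25 to 1.60 over the classes. Their sum in endothelial-like cells was 103 and 133 CPM, a ratio of 1.29 (1.15 to 1.44), below every ratio of the 26S groups in that class. For fibro-adipogenic progenitor-like cells it was 86.6 and 139 CPM, a ratio of 1.60 (1.41 to 1.82), which overlaps with the beta ring ratio of that class. In pericyte and smooth muscle-like cells the chaperone ratio of 1.45 (1.02 to 2.12) lay above those of both 20S rings, with overlapping intervals. Psmd5 was higher in tenocyte-like cells, at 26.2 and 66.4 CPM (2.53, 1.83 to 3.54), where Psmd9 was at 60.2 and 57.5 CPM (0.956, 0.736 to 1.24).

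The PA28αβ genes did not share the direction of the 26S genes in all classes. In endothelial-like cells Psme1 (chr14:55578123-55581529) stood at 338 CPM in the uninjured and 209 CPM in the injured library, a ratio of 0.619 (0.570 to 0.671). Psme2 (chr14:55587441-55591113) had 341 and 238 CPM there, a ratio of 0.699 (0.647 to 0.755). In fibro-adipogenic progenitor-like cells Psme1 had 104 and 64.8 CPM (0.625, 0.544 to 0.718) but Psme2 had 149 and 151 CPM (1.01, 0.913 to 1.13). In dendritic-like cells both were higher in the injured library, Psme1 at 220 and 304 CPM (1.38, 1.07 to 1.82) and Psme2 at 217 and 395 CPM (1.82, 1.41 to 2.39). In pericyte and smooth muscle-like cells Psme2 had 128 and 205 CPM (1.60, 1.20 to 2.17) and Psme1 110 and 148 CPM (1.35, 0.981 to 1.89). When cells were assigned by marker score and not by cluster, the log2 ratio of the PA28αβ sum in that class was -0.40 in place of 0.61. In tenocyte-like cells Psme1 had 54.8 and 55.1 CPM (1.00, 0.766 to 1.32) and Psme2 94.6 and 127 CPM (1.35, 1.11 to 1.63), a direction that was lost with cells thinned to 1500 UMIs (log2 ratio -0.09). In monocyte and macrophage-like cells Psme1 had 209 and 168 CPM (0.805, 0.626 to 1.05) and Psme2 178 and 257 CPM (1.44, 1.10 to 1.92). The lower PA28αβ sum of endothelial-like cells, 720 and 473 CPM, kept its direction under every alternative tried. It was not seen within the endothelial-like cluster 10, at 499 and 517 CPM (1.04, 0.894 to 1.20). The small difference in fibro-adipogenic progenitor-like cells, 263 and 229 CPM, lost its direction under 3 of the alternatives. By cluster, PA28αβ stood at 257, 270 and 267 CPM in clusters 8, 16 and 20 and at 225 CPM (214 to 237) in cluster 9, which overlaps with the interval of cluster 8 (235 to 280) and not with that of cluster 16 (239.6 to 304).

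The other activators went separate ways. Psme3 (chr11:101316213-101323537), the nuclear PA28γ activator, had the largest ratio of all proteasome genes in fibro-adipogenic progenitor-like cells, at 19.7 and 98.8 CPM (5.01, 3.93 to 6.46). By cluster it stood at 19.4, 20.05 and 20.1 CPM in clusters 8, 16 and 20 and at 100.2 CPM in cluster 9. The 14 cell cycle markers summed to 86.7, 72.6 and 77.6 CPM in the same 3 clusters and to 732 CPM in cluster 9, and their part in this difference was not tested. In endothelial-like cells Psme3 had 22.4 and 57.7 CPM (2.57, 2.11 to 3.14), in pericyte and smooth muscle-like cells 23.3 and 57.3 CPM (2.46, 1.27 to 5.31), and in tenocyte-like cells 18.9 and 36.9 CPM (1.95, 1.31 to 2.95). In monocyte and macrophage-like (37.0 and 56.3 CPM) and dendritic-like cells (30.98 and 48.8 CPM) the interval of its ratio held 1. Psme4, the nuclear PA200 activator, had 23.1 and 23.4 CPM in endothelial-like cells (1.02, 0.777 to 1.32) and 21.9 and 22.4 CPM in fibro-adipogenic progenitor-like cells (1.02, 0.778 to 1.36). In dendritic-like cells Psme4 was the 1 member at least 2-fold lower, at 37.9 and 17.9 CPM, on 11 and 36 UMIs (0.474, 0.236 to 1.03).

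The members at the ends of each class followed partly the same roles. In endothelial-like cells Psmd14, Psme3 and Psmc4 had the 3 highest log2 ratios (1.62, 1.36 and 1.31) and Psme1, Psme2b and Psme2 the 3 lowest (-0.69, -0.66 and -0.52). In fibro-adipogenic progenitor-like cells the highest were Psmc3ip (2.78), Psme3 (2.32) and Psmd14 (1.54), and the lowest Psme1 (-0.68), Psme2 (0.02) and Psme4 (0.03). In tenocyte-like cells Psmd14 (1.59), Psmd2 (1.36) and Psmd13 (1.36) were highest, and Psmd9 (-0.06), Psme1 (0.01) and Psme2 (0.43) lowest. In pericyte and smooth muscle-like cells Psmd1 (1.46), Psme2b (1.34, on 2 and 26 UMIs, a ratio of 3.80 with an interval of 0.952 to 33.0) and Psme3 (1.30) were highest, and Psme4 (-0.52), Psma2 (0.04) and Psma1 (0.14) lowest. In monocyte and macrophage-like cells Psmc4 (1.85), Psmd14 (1.80) and Psmd1 (1.56) were highest, each on 8 or 9 UMIs in the uninjured library, and Psmc3ip (-0.69, on 1 and 38 UMIs, a ratio of 0.619 with an interval of 0.105 to 25.1), Psme2b (-0.57) and Psme1 (-0.31) lowest. In dendritic-like cells Psmd12 (1.59, on 6 UMIs in the uninjured library), Psma1 (1.44) and Psmc4 (1.22) were highest. The lowest there were Psme4 (-1.08), Psmd4 (-0.01) and Psmd5, which had 1 and 20 UMIs (ratio 2.89, 0.463 to 120) and a log2 ratio of 0.00, since in log2 ratios a count under 3 in the lower library was set to 3 and the result bounded at 0.

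The immunoproteasome genes, which replace the catalytic members, were lower in the injured library in endothelial-like cells. Psmb8, Psmb9 and Psmb10 summed to 824 and 272 CPM there, a ratio of 0.330 (0.309 to 0.353). Their share among UMIs of all 6 catalytic genes was 59.4% (58.5 to 60.3, Clopper-Pearson interval) in the uninjured and 21.1% (19.9 to 22.3) in the injured library. In fibro-adipogenic progenitor-like cells the share was 25.2% and 12.8%, in monocyte and macrophage-like cells 54.0% and 30.8%, and in tenocyte-like cells 11.5% (9.59 to 13.55) and 8.33% (7.10 to 9.70), a direction that turned with cells thinned to 1500 UMIs (8.64% and 10.95%). The summed level of Psmb8, Psmb9 and Psmb10 was not lower in injured tenocyte-like cells. It was 58.2 CPM (48.3 to 69.6) and 74.3 CPM (62.9 to 87.1), with overlapping intervals. With doublets kept, the log2 ratio of this sum was -0.14. In dendritic-like cells it was 57.1% (51.1 to 63.0) and 52.0% (50.3 to 53.7), and in pericyte and smooth muscle-like cells 13.8% (10.3 to 17.9) and 15.9% (14.1 to 17.7), with overlapping intervals in both. In the latter class Psmb8 against Psmb5 was 9.57% (4.47 to 17.4) and 21.9% (18.7 to 25.4), with intervals apart. Its share over all pairs turned to 45.2% and 17.7% when marker scores and not clusters assigned the cells, which put 327 uninjured cells into the class. In dendritic-like cells Psmb9 against Psmb6 was 38.4% (28.1 to 49.5) and 24.0% (21.3 to 26.9), and Psmb10 against Psmb7 was 57.9% (44.1 to 70.9) and 43.2% (39.3 to 47.2). The intervals of the Psmb10 share overlap. The levels did not fall with these shares, since Psmb9 itself had 114 and 112 CPM and Psmb10 114 and 137 CPM there. The pairs differed: in fibro-adipogenic progenitor-like cells Psmb8 against Psmb5 was 32.8% and 9.03%, Psmb9 against Psmb6 11.3% and 1.80%, and Psmb10 against Psmb7 37.1% and 30.4%. There Psmb10 itself was higher in the injured library, at 59.2 and 83.2 CPM (1.41, 1.20 to 1.65), while Psmb8 had 68.5 and 25.96 CPM (0.379, 0.311 to 0.461). In satellite cell-like cells of the uninjured library the share was 10.5%, in glial-like cells 24.3% and in lymphatic endothelial-like cells 26.6%.

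**Figure D4:**
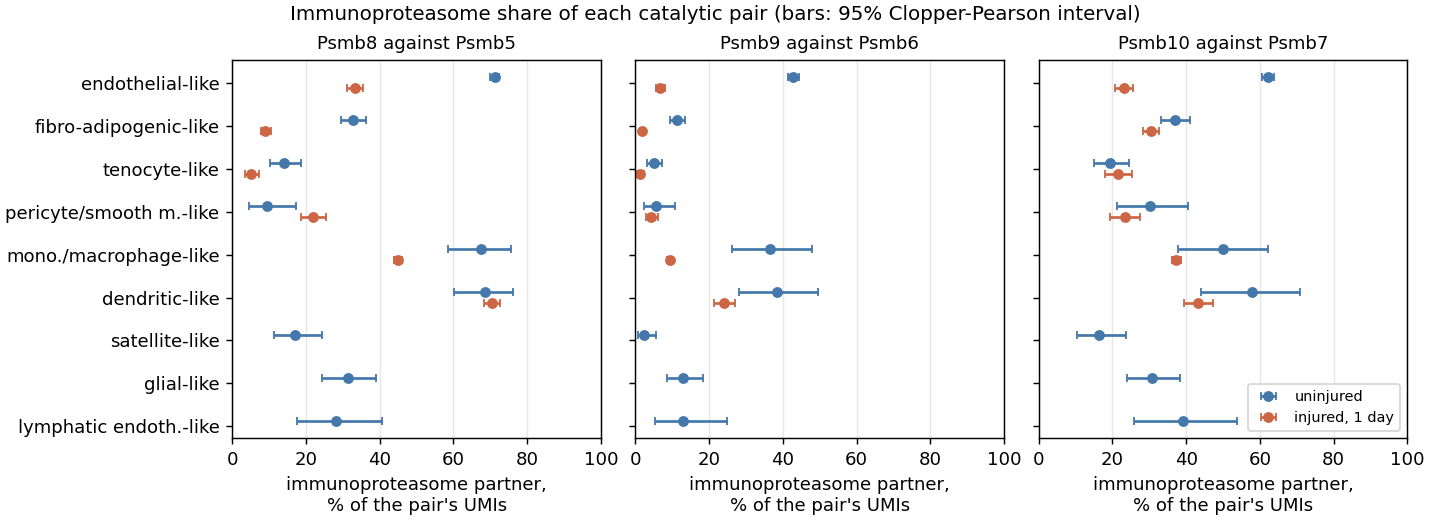
Share of the immunoproteasome partner among the UMIs of each catalytic pair (x axis, 0 to 100%) per cell class, 1 point per library with its 95% Clopper-Pearson interval. In endothelial-like cells all 3 shares are lower in the injured library, whereas in dendritic-like cells the Psmb8 share is 68.6% and 70.4%. The Psmb9 and Psmb10 shares of dendritic-like cells are lower in the injured library, with overlapping intervals for Psmb10. A lower share does not mean a lower level of the immunoproteasome partner.

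The difference was also present in single cells at equal depth. With every cell thinned to 1500 UMIs, which left out 0 cells, the median endothelial-like cell had 7 UMIs of the 26S genes in uninjured muscle and 12 after injury, and 14 and 50 without thinning. The thinned medians were 5 and 10 in fibro-adipogenic progenitor-like, 5 and 10 in tenocyte-like, 7 and 11 in pericyte and smooth muscle-like, 4 and 8 in monocyte and macrophage-like and 5 and 9 in dendritic-like cells. In injured endothelial-like cells the 10th percentile was 7 UMIs, equal to the uninjured median. The distributions overlapped in every class.

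**Figure D5:**
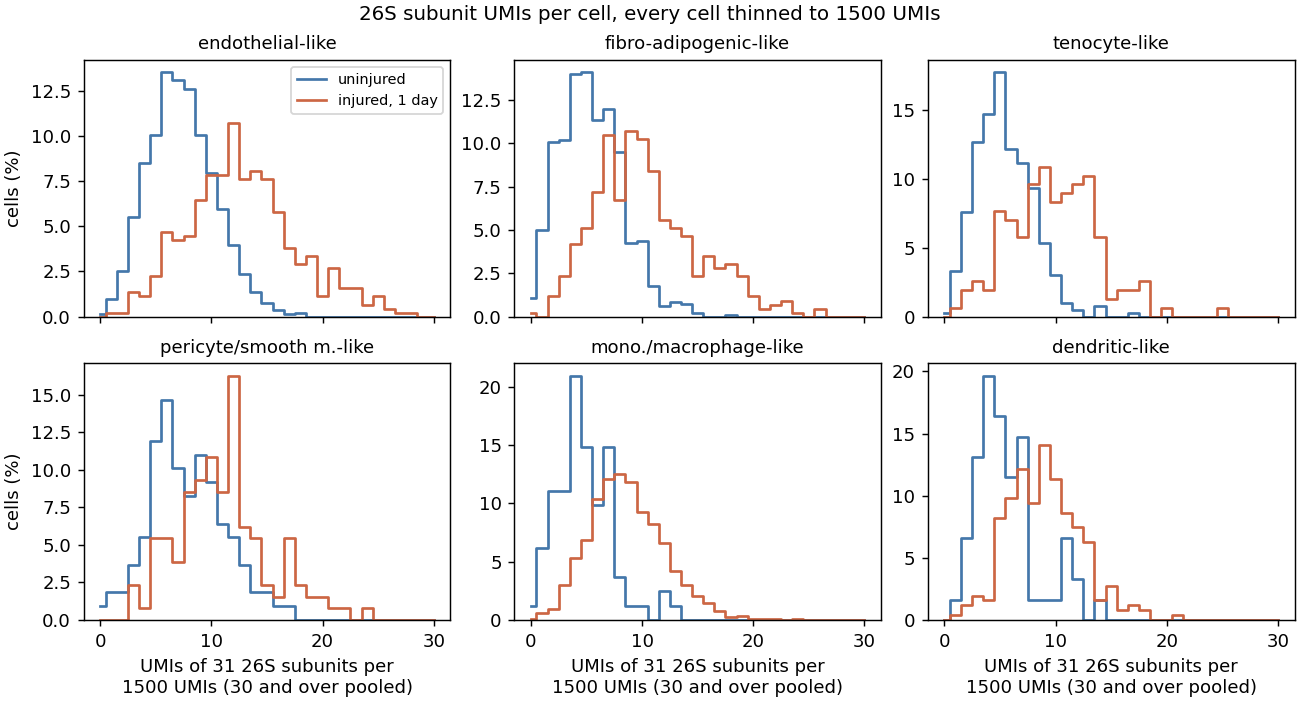
Share of cells (y axis, %) by their number of 26S subunit UMIs after thinning to 1500 UMIs (x axis), for both libraries in 6 cell classes. Each injured curve is shifted to the right of the uninjured curve as a whole, with medians of 12 against 7 in endothelial-like cells, and the curves overlap.

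Where a cluster held at least 50 cells of both libraries, the ratio could be taken within it. Cluster 10, endothelial-like cells led by the venous genes Selp, Ackr1 and Vwf, had 4075 CPM in 346 uninjured and 8030 CPM in 51 injured cells, a 26S ratio of 1.97 (1.89 to 2.05). PA28αβ was at 499 and 517 CPM in it (1.04, 0.894 to 1.20), so the lower PA28αβ of the class was not seen in that cluster, while the immunoproteasome sum was 584 and 365 CPM (0.624, 0.529 to 0.733). Among uninjured endothelial-like clusters, the arterial cluster 7 (led by Gkn3, Sema3g and Gja5) had the highest PA28αβ sum at 1013 CPM and an immunoproteasome share of 68.3%, against 455 CPM and 17.6% in the injured cluster 12. The injured monocyte and macrophage-like clusters 3, 4, 5 and 6 had 26S sums of 5464, 5846, 6483 and 5989 CPM, all above the 3212 CPM of the 70 uninjured cells of cluster 24.

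Genes that work with the proteasome were compared by fixed lists, to be read against the share of all genes at least 2-fold higher in each class. That share was 10.6% in endothelial-like, 15% in fibro-adipogenic progenitor-like and 10.4% in tenocyte-like cells. It was 8.08% in monocyte and macrophage-like, 18.3% in pericyte and smooth muscle-like and 10.3% in dendritic-like cells. Of 5 chaperones of 20S assembly (Pomp, Psmg1, Psmg2, Psmg3 and Psmg4), 1 was at least 2-fold higher in endothelial-like, 3 in fibro-adipogenic progenitor-like and 1 in monocyte and macrophage-like cells, and 0 in the other classes. Pomp, the 20S maturation factor, had 247 and 378 CPM in endothelial-like cells (1.53, 1.43 to 1.64). Of 8 19S partners outside the name rule, 3 were at least 2-fold higher in endothelial-like, 4 in fibro-adipogenic progenitor-like, 2 in tenocyte-like, 2 in monocyte and macrophage-like and 1 in pericyte and smooth muscle-like cells (12.5%, below the 18.3% of all genes). In dendritic-like cells 0 of the 7 measured were higher and 1 was lower (14.3%, near the 11.9% of all genes). Among them were the ubiquitin receptor Adrm1 (72.1 and 152 CPM in endothelial-like cells) and the deubiquitinase Usp14 (29.4 and 69.5 CPM there). Of 9 genes of ubiquitin shuttling, 3 were at least 2-fold higher in endothelial-like and 3 in fibro-adipogenic progenitor-like cells, but 0 in tenocyte-like cells, where the list median was 0.13. Pericyte and smooth muscle-like cells had 1 higher and 1 lower (11.1% each, below the 18.3% and 13% of all genes). Monocyte and macrophage-like cells had 2 higher (22.2%) and 1 lower (11.1%, below the 25.9% of all genes), and dendritic-like cells 2 higher of 8 measured (25%). Vcp, the segregase that extracts substrates, had 163 and 388 CPM in endothelial-like cells. Of the ubiquitin genes, Ubb had 3513 and 2527 CPM in endothelial-like cells and Rps27a 2480 and 3875 CPM.

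Of 7 transcription genes of the proteasome list, 0 were at least 2-fold higher or lower in endothelial-like, fibro-adipogenic progenitor-like and monocyte and macrophage-like cells. Dendritic-like cells had 2 higher (28.6%, against 10.3% of all genes) and 1 lower (14.3%, against 11.9%). Pericyte and smooth muscle-like cells had 1 higher and 1 lower (14.3% each, against 18.3% and 13%). Tenocyte-like cells also had 1 higher and 1 lower (14.3% each, against 10.4% and 21.3%). Nfe2l1, which drives proteasome genes when proteasome activity is low, had 149 and 98.9 CPM in endothelial-like cells and 82.6 and 30.4 CPM in dendritic-like cells. Nfe2l2 had 118 and 101 CPM in endothelial-like, 42.7 and 106 CPM in tenocyte-like (log2 ratio 1.31) and 82.6 and 233 CPM in dendritic-like cells (1.49). Of 14 interferon response genes, 13 were at least 2-fold lower in endothelial-like cells (median -2.18) and 12 in fibro-adipogenic progenitor-like cells (median -1.96), against 20.4% and 28.7% of all genes. Of those measured, 5 of 13 were at least 2-fold lower in monocyte and macrophage-like cells (38.5%, against 25.9% of all genes). In tenocyte-like cells 3 of 13 were (23.1%, near the 21.3% of all genes). In dendritic-like and in pericyte and smooth muscle-like cells 1 of 10 was (10%, below the 11.9% and 13% of all genes).

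Other complexes gave both larger and smaller medians than the proteasome genes. All 7 chaperonin genes were at least 2-fold higher in endothelial-like, fibro-adipogenic progenitor-like, tenocyte-like and pericyte and smooth muscle-like cells, against 10.6%, 15%, 10.4% and 18.3% of all genes. Their medians of 1.43, 1.90, 1.62 and 1.25 lay above those of the proteasome genes in these classes. In monocyte and macrophage-like cells 3 of 7 were at least 2-fold higher (42.9%, against 8.08% of all genes). The median there was 0.82, beside 0.80 for the proteasome genes. In dendritic-like cells 1 of 7 was at least 2-fold higher (14.3%, against 10.3% of all genes), with a median of 0.51, below the 0.68 of the proteasome genes. The 9 COP9 signalosome genes, relatives of the 19S lid, had medians from 0.06 to 0.53 over the 6 classes, each below that of the proteasome genes. The 13 eIF3 genes had medians from 0.08 in monocyte and macrophage-like to 1.05 in fibro-adipogenic progenitor-like cells.

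RNA of other cells differed between the libraries. The 10 muscle fibre markers, all detected in the endothelial-like class, summed to 563 CPM in uninjured and 156 CPM in injured endothelial-like cells, and to 1314 and 106 CPM in pericyte and smooth muscle-like cells. Over the 6 classes the fibre sum was 444 to 1314 CPM in the uninjured and 64.5 to 260 CPM in the injured library, with 0 to 2 of the 10 markers at 0. In pericyte and smooth muscle-like cells the 10 endothelial markers, none at 0, summed to 1003 and 3420 CPM, against 9762 and 6352 CPM in endothelial-like cells, beside the Psmb8 levels of 21.0 and 92.1 CPM there. Macrophage markers were higher in the injured library in all 4 stromal and vascular classes, with 12 markers that summed to 34.1 and 234 CPM in endothelial-like, 52.3 and 220 CPM in fibro-adipogenic progenitor-like, 35.4 and 277 CPM in tenocyte-like and 23.3 and 233 CPM in pericyte and smooth muscle-like cells. Of these 12, 2 to 6 were at 0 in the uninjured cells of a class and 0 in the injured cells. Endothelial markers were lower in the injured library outside the vascular classes, at 451 and 84.4 CPM in fibro-adipogenic progenitor-like, 441 and 97.4 CPM in tenocyte-like, 448 and 37.0 CPM in monocyte and macrophage-like and 675 and 42.3 CPM in dendritic-like cells. The part of this RNA in the 26S, PA28αβ and immunoproteasome ratios was not tested. Leaving mitochondrial, haemoglobin and ribosomal protein genes out of the totals raised the all-gene median log2 ratio by 0.26 in fibro-adipogenic progenitor-like, 0.23 in tenocyte-like, 0.12 in endothelial-like and 0.11 in pericyte and smooth muscle-like cells.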

How the data were processed

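The deposited values are counts: UMIs per gene and cell barcode from 10x Genomics 3′ libraries, made by the authors with Cell Ranger 2.1.1 on mm10, per the submitters' processing notes. No column of per-sample values was left unused (0 columns). From these counts, barcodes with under 200 genes or over 20% mitochondrial UMIs were dropped (178 and 64 for few genes, whose UMIs were 96.6% and 96.0% haemoglobin, then 18 and 4). Scrublet's own threshold called 1 doublet per library, so the highest scores were removed at an assumed rate of 0.8% for each 1000 cells (249 and 161), which left 5136 uninjured and 4260 injured cells. Cells were clustered with scanpy 1.11.5 (2000 variable genes, 30 components, 15 neighbours, Leiden resolution 1, seed 0) into 27 clusters. A cluster was named from a marker list with at least 3 members present, each in at least 20% of its cells and at least 2-fold above the median cluster. This naming rule was set after the data had been seen. UMIs of genes were summed per class and library, and classes with at least 50 cells in both libraries were compared. Intervals (Poisson, conditional binomial and Clopper-Pearson, 95%, scipy 1.17.1) cover counting error only. Genes with at least 20 UMIs over both libraries of a class entered gene counts, and 2-fold was the size limit used in place of a test, since there is 1 library per condition. Named genes are the 3 highest and 3 lowest log2 ratios per class, the catalytic genes and the activators; other genes were chosen after their values were seen. The members and lists were chosen with earlier results of these data known. Coordinates are from GENCODE M21 (GRCm38) and promoters from RefSeq. The calculation was tested on simulated counts. The alternatives were doublets kept, other Leiden resolutions, another cell assignment, thinning, a depth minimum, other scalings, a higher UMI minimum and leaving out a cluster.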

Additional observations from a re-analysis of the deposited data

Results flagged for a closer look

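The PA28αβ and immunoproteasome sums are listed because their counting intervals lay on opposite sides of no difference in different classes. The difference between classes was not tested, since each class has 1 sample per condition. The log2 ratio of injured over uninjured PA28αβ was 0.67 in dendritic-like, 0.61 in pericyte and smooth muscle-like and 0.33 in tenocyte-like cells, against -0.61 in endothelial-like and -0.20 in fibro-adipogenic progenitor-like cells. That of Psmb8, Psmb9 and Psmb10 together was 0.63 in dendritic-like and 0.75 in pericyte and smooth muscle-like cells, against -1.60 in endothelial-like, -0.44 in fibro-adipogenic progenitor-like and -0.39 in monocyte and macrophage-like cells. Both pericyte and smooth muscle-like values depend on how cells were assigned: with marker scores in place of clusters they were -0.40 for PA28αβ and -1.13 for the immunoproteasome genes. The fibro-adipogenic progenitor-like PA28αβ value lost its direction under 3 scalings. The lower endothelial-like PA28αβ was not seen within cluster 10, which had 346 uninjured and 51 injured cells at 499 and 517 CPM (1.04, 0.894 to 1.20).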

How the results depend on the processing

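The median log2 ratio of the members stayed above 0 in every class under every alternative that gave a value, at 0.56 to 0.77 in dendritic-like, 0.79 to 1.07 in endothelial-like, 0.86 to 1.19 in fibro-adipogenic progenitor-like, 0.74 to 0.96 in monocyte and macrophage-like, 0.48 to 0.73 in pericyte and smooth muscle-like and 0.80 to 1.15 in tenocyte-like cells. At Leiden resolution 0.5 dendritic-like and pericyte and smooth muscle-like cells were not named, so that setting gives no value for them. The depth minimum gave no value for dendritic-like and monocyte and macrophage-like cells. No paired analysis was possible because each condition has 1 library. Depth limits the uninjured dendritic-like and monocyte and macrophage-like cells most, where single genes rest on few UMIs. For the values that moved, the cause was not tested.

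Relative to the median ratio of all genes, 23 members were at least 2-fold higher in endothelial-like, 28 in fibro-adipogenic progenitor-like and 28 in tenocyte-like cells, against 14%, 20.6% and 14.4% of all genes. That scale raises ratios where the all-gene median is negative, as in these classes. It lowers them in dendritic-like and in pericyte and smooth muscle-like cells, where that median is 0.04 and 0.14. The log2 ratios of alpha, beta, ATPase, non-ATPase and PA28αβ sums were then 1.00, 1.01, 1.11, 1.15 and -0.40 in endothelial-like cells, and 1.21, 0.99, 1.10, 1.39 and 0.0864, a reversal of the last, in fibro-adipogenic progenitor-like cells. The first 4 were 1.12, 1.05, 0.99 and 1.25 in tenocyte-like cells. The alpha sum was 0.94 in monocyte and macrophage-like cells, and alpha and beta were 0.31 and 0.37 in pericyte and smooth muscle-like cells. With totals that leave out mitochondrial, haemoglobin and ribosomal protein genes, 18, 27 and 29 members were at least 2-fold higher in endothelial-like, fibro-adipogenic progenitor-like and tenocyte-like cells, against 12.2%, 20% and 14.7% of all genes. The same 5 sums were 0.91, 0.92, 1.02, 1.06 and -0.49 in endothelial-like, 1.18, 0.97, 1.08, 1.36 and 0.0597, again a reversal, in fibro-adipogenic progenitor-like, and 1.14, 1.06, 1.01, 1.27 and 0.56 in tenocyte-like cells.

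With cells thinned to 1500 UMIs, 6 members were at least 2-fold higher and 1 lower in endothelial-like cells, 8 higher in tenocyte-like and 0 lower in dendritic-like cells, against 9.59%, 16.6%, 11.7% and 7.48% of all genes. The non-ATPase sum was 0.82 in endothelial-like and 1.16 in tenocyte-like cells, the alpha sum 0.76 in tenocyte-like cells, and the beta sum 0.80 in fibro-adipogenic progenitor-like and 1.19 in monocyte and macrophage-like cells. PA28αβ was -0.32 in fibro-adipogenic progenitor-like and 0.11 in tenocyte-like cells, where Psme2 reversed to -0.0866. The injured immunoproteasome share was 22.4% in endothelial-like, 11.7% in fibro-adipogenic progenitor-like, 32.3% in monocyte and macrophage-like and 10.95% in tenocyte-like cells, whose uninjured share was 8.64%, a reversal. With the mean of per-cell normalised values, alpha and beta were 0.74 and 0.75 in endothelial-like cells. Beta, ATPase, non-ATPase and PA28αβ were 0.76, 0.93, 1.17 and 9.92e-05 in fibro-adipogenic progenitor-like cells, where the last is in effect no difference. At least 2-fold higher were 3 members in pericyte and smooth muscle-like cells, against 17.9% of all genes, and the injured share was 22.6% in endothelial-like and 31.6% in monocyte and macrophage-like cells.

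With cells assigned by their own marker score, 0 members were at least 2-fold lower in dendritic-like and 1 in pericyte and smooth muscle-like cells, against 14.6% and 17.6% of all genes. In the latter the alpha sum was 0.59, the beta sum 0.71, PA28αβ reversed to -0.40, Psme2 reversed to -0.23, and the uninjured immunoproteasome share was 45.2%. The injured share was 44.9% in dendritic-like, 22.5% in endothelial-like and 13.7% in fibro-adipogenic progenitor-like cells. With only cells at least as deep as the shallowest injured cell, beta and ATPase were 0.84 and 0.98 in endothelial-like cells, whose uninjured share was 60.7%, and beta was 0.65 in fibro-adipogenic progenitor-like cells. With doublets kept, the uninjured share was 27.8% in fibro-adipogenic progenitor-like and 15.4% in tenocyte-like cells. With at least 50 UMIs per gene, 0 members were at least 2-fold lower in dendritic-like cells. Without cluster 3, an alternative chosen after seeing the data, the injured share was 28.4% in monocyte and macrophage-like cells.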

Other observations

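Clusters outside the named classes also held proteasome transcripts. Cluster 14, with 258 injured cells and no name, had a 26S sum of 5988 CPM (5882 to 6095). Cluster 25, with 108 uninjured cells, had 4837 CPM beside 39475 CPM of muscle fibre markers. Cluster 22, led by haemoglobin genes, had 1188 CPM (1120 to 1260) in 109 uninjured cells. Cluster 18 was led by Rgs5, Kcnj8 and Abcc9 of the pericyte and smooth muscle list but had markers of more than 1 class. It had 4408 CPM in 204 uninjured cells, which were left out of the pericyte and smooth muscle-like class, as were its 12 injured cells.

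Psmc3ip, which the name rule took in although it is no proteasome subunit, had 4.80 CPM in uninjured and 32.9 CPM in injured fibro-adipogenic progenitor-like cells, a ratio of 6.86 (4.24 to 11.8). In the same class 13 of 14 cell cycle genes (92.9%, against 15% of all genes) were at least 2-fold higher in the injured library. Their median log2 ratio was 3.55, and their part in the Psmc3ip ratio was not tested.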
